A study of Mus musculus with 14 samples.

Results

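Collagens are the proteins that form most of the extracellular matrix of muscle, and each is a triple helix of chains that one or more genes encode. The 44 genes described here are those whose array probe set carries a single gene symbol made of Col, a type number, the letter a and a chain number, out of 19938 genes tested. They comprise 11 fibrillar chains, 9 of basement membrane, 10 that form networks or beaded filaments, 9 fibril-associated and 4 transmembrane chains, and Col26a1, which fits none of these classes. The groups follow textbook classes and the members were taken by symbol alone, though earlier results of these data were known when the choice was made.

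Gene expression was measured on Affymetrix Mouse Gene 1.0 ST arrays in the plantaris, a calf muscle, of male C57BL/6J mice aged 25 months after the gastrocnemius and soleus had been cut out, which overloads the plantaris so that it grows. Day 0 and days 1, 3, 5, 7, 10 and 14 of overload had 2 arrays each, 14 in all, one hybridised with pooled left and one with pooled right muscles of 6 animals. All mice were old. No array carries the label of a sham operation, so in every difference from day 0 surgery and load cannot be told apart. The labels do not say whether the left and right pools of a day hold muscles of the same animals, and p-values here rest on the scatter of sides and arrays, not of animals.

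Fibrillar collagens such as types I, III and V build the load-bearing fibres of the endomysium and perimysium. Type IV collagen forms the sheet of the basement membrane around each fibre and capillary, while types XV and XVIII sit at its surface and type VI links the membrane to the fibres outside it. Fibril-associated collagens such as types XII and XIV decorate the fibril surface and are abundant in tendon and other loaded tissue. Fibroblasts and their relatives make most of the fibrillar and type VI chains in muscle, and in bulk RNA a change in the number of cells of a type and a change in RNA per cell cannot be told apart.

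The deposited values are log2 signals. In what follows the left array is given before the right one, a difference is the mean of a day minus the mean of day 0 on the log2 scale with its standard error from limma (n = 2 arrays per day), and a chain rose or fell where limma's p-value, adjusted over all 19938 genes, was under 0.05. The muscle fibre genes Acta1, Ckm, Myh4 and Tnnt3 lay between 13.02 and 14.44 on all 14 arrays. Of these 4, 1 fell on day 1, 3 on days 3, 5, 7 and 10 and 2 on day 14. Their summed level was 16.105 to 16.143 on day 0 and 15.57 to 15.76 on day 5. The left array of day 0 stood above the right one for the tendon genes Fmod (11.84 and 11.27) and Tnmd (9.602 and 9.09) and the macrophage gene Itgam (8.84 and 7.99). The tendon gene Scx went the other way (8.92 and 9.15). Wider gaps were seen in the cartilage gene Chad (11.37 and 10.39) and the bone gene Ibsp (9.52 and 8.26). No collagen chain differed between right and left over the days (0 of 44 with limma, against 0% of all genes). At an unadjusted p under 0.05 there were 4 of 44, against 2092 of all 19938 genes. The smallest p was that of Col15a1, lower on the right by 0.16 (adjusted p = 0.29 with limma). No member was among the 25% of genes with the lowest mean signal, but no detection call stands behind any value.

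Collagen expression moved in a few large steps and many small ones. On day 1, 4 chains rose (9.09%) and 5 fell (11.4%), against 22.3% and 22.6% of all genes. On day 3, 15 rose (34.1%, against 24.1% of all genes) and 9 fell (20.5%, against 26.6%). On day 5, 19 rose (43.2%, against 26.4%) and 14 fell (31.8%, against 33.7%). The share of chains that rose was thus below the background on day 1 and above it on days 3 and 5. The share that fell lay below the background on days 1 and 3 and close to it on day 5. The counts of falls on days 3 and 5 moved with the scaling. On day 7 the counts were 18 higher (40.9%, against 26.6%) and 15 lower (34.1%, against 36.3%), on day 10 they were 23 (52.3%, against 25.9%) and 9 (20.5%, against 34.3%), and on day 14 they were 21 (47.7%, against 22.9%) and 8 (18.2%, against 30.5%). The median difference of the 44 chains was 0.28 on day 10 and 0.21 on day 14, beside -0.13 and -0.11 for all genes, and on day 5 it was -0.10 beside -0.12.

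Over the whole course 23 chains rose on at least 1 day and 24 fell on at least 1 day, 7 of them did both and 4 did neither. The share of all genes called on at least 1 day was not counted. These counts, and those of the groups below, therefore have no background beside them. The rises were large and the falls small. On every day from 3 to 14, 15 chains rose, and 15 (not all of them the same) were called higher by at least 2-fold on some day. No chain fell 2-fold on any day, and the falls of days 3 to 14 lay between -0.58 and -0.20. Many of the small falls followed the scaling. When each array was shifted so that the median difference of all genes from day 0 was 0, the rises of days 3 to 14 were all kept, but of the 9, 14, 15, 9 and 8 falls on days 3, 5, 7, 10 and 14 only 7, 4, 5, 2 and 4 were. This shift raised every array of days 3 to 14, so it could cost falls but hardly rises. Equal array medians instead gave 17, 22, 15 and 15 falls on days 3, 5, 10 and 14. Under all 3 scalings tried, 15, 16, 17, 19 and 20 of the 15, 19, 18, 23 and 21 rises on days 3, 5, 7, 10 and 14 were kept. With each array left out in turn, 91 of the 96 rises of days 3 to 14 were called every time, but only 18 of the 55 falls, which include those of Col9a1 on all 5 days. The moderated F test of limma found 38 of 44 chains to vary over the days, against 79.5% of all genes. The 6 that did not were Col2a1, Col4a4, Col4a5, Col11a2, Col17a1 and Col25a1.

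**Figure D1:**
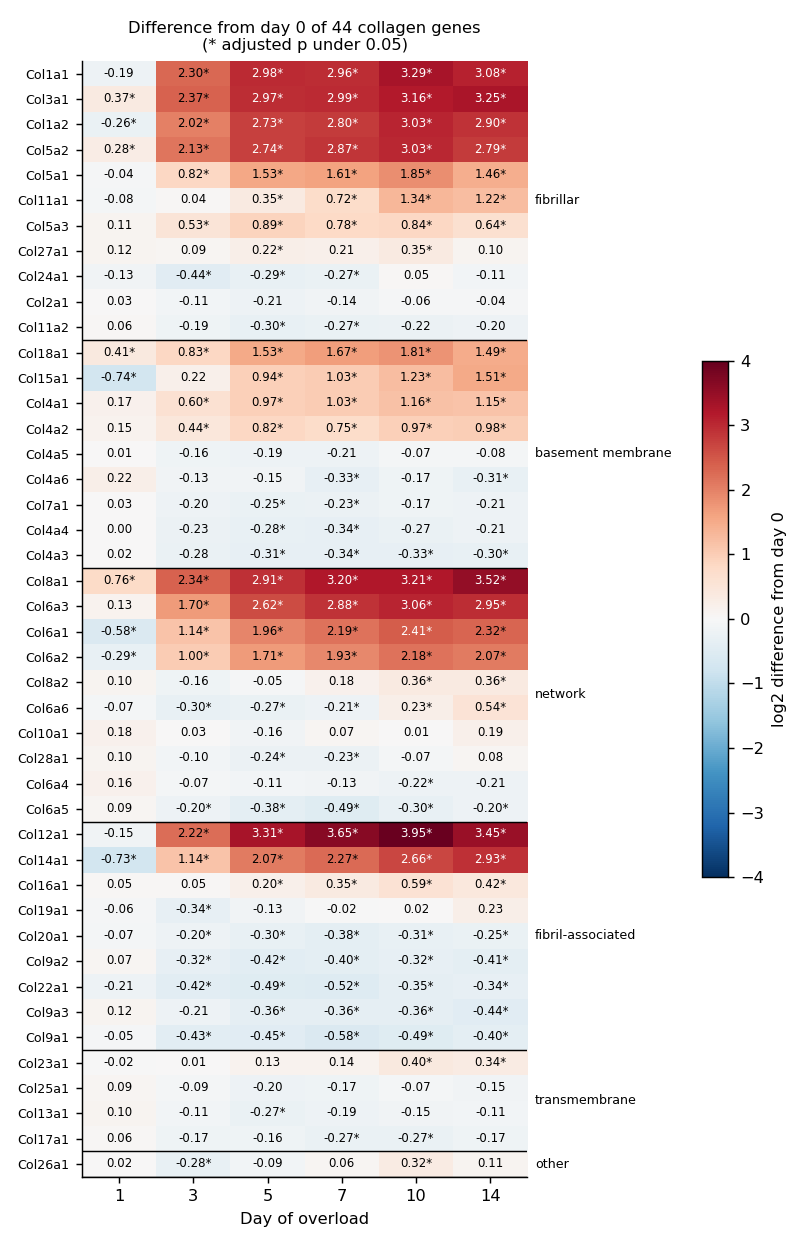
Log2 difference from day 0 of each of the 44 collagen genes (rows, by group and then by the day 10 value) on days 1, 3, 5, 7, 10 and 14 (columns), red for higher and blue for lower; a star marks a limma adjusted p under 0.05. Rises reach 3.95 in Col12a1 on day 10, and after day 1 no fall is larger than 0.58 in size.

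Most of the change between successive days came before day 5. From day 1 to day 3, 16 chains rose (against 19.5% of all genes) and 12 fell (against 24.7%). From day 3 to day 5 another 16 rose, which is 36.4% of the chains against 4.68% of all genes, and none fell by limma (1.9% of all genes; 1 chain at an unadjusted p under 0.05). From day 5 to day 7 no chain was called in either direction by limma (0.401% and 0.627% of all genes), while 7 were higher and none lower at an unadjusted p under 0.05. The share of all genes at that unadjusted threshold was not counted for any step, so the unadjusted counts have no background beside them. From day 7 to day 10, 2 chains rose (0.933% of all genes), Col11a1 by 0.62 ± 0.10 (adjusted p = 0.013, limma) and Col6a6 by 0.44 ± 0.08 (adjusted p = 0.022), and none fell (1% of all genes; none at an unadjusted p under 0.05). From day 10 to day 14 Col6a6 rose by 0.31 ± 0.08 (adjusted p = 0.037, limma; 3.79% of all genes rose) and Col5a1 fell by 0.39 ± 0.07 (adjusted p = 0.0098; 5.11% fell). Each of these last calls was lost when some single array was left out, though in each the arrays of the later day did not overlap those of the earlier one. Leaving out the right array of day 7, or either array of day 10, ended both rises of day 7 to day 10, and without the left array of day 7 a single one was left. The rise of day 10 to day 14 was lost without either array of day 3 or of day 14 or without the right array of day 10, and the fall was lost without either array of day 10 or the right array of day 14.

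The fibrillar chains were the group in which most members rose. Of 11, 8 rose and 3 fell on at least 1 day, and the group median was 0.53 on day 3 and 1.34 on day 10, beside -0.07 and -0.13 for all genes. Type I collagen, the main fibre protein of tendon and muscle connective tissue, is a trimer of chains from Col1a1 and Col1a2. Col1a1 (probe set 10380419) read 10.56 and 10.39 on day 0, 10.30 and 10.26 on day 1, 12.70 and 12.84 on day 3, 13.44 and 13.48 on day 5, 13.46 and 13.41 on day 7, 13.80 and 13.73 on day 10 and 13.60 and 13.51 on day 14. Every array from day 3 on lay more than 2 units above both arrays of day 0. The difference was 2.299 ± 0.08 on day 3 and 3.29 ± 0.08 on day 10, a 9.76-fold increase (adjusted p = 1.1e-10, limma). Col1a2 read 10.54 and 10.24 on day 0, 10.14 and 10.11 on day 1, 12.34 and 12.48 on day 3, 13.10 and 13.14 on day 5, 13.20 and 13.18 on day 7, 13.46 and 13.39 on day 10 and 13.33 and 13.25 on day 14. It fell by 0.26 ± 0.09 on day 1 (adjusted p = 0.038, limma) and then rose, by 3.03 ± 0.09 on day 10 (8.19-fold, adjusted p = 2.7e-10). On day 1 Col1a1 was also lower than on day 0 on both arrays, by 0.19 ± 0.08, but did not pass the test (adjusted p = 0.072, limma).

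Col3a1 encodes the chain of type III collagen, a homotrimer found in the finer fibres of young or repairing connective tissue. Its signals were 9.61 and 9.56 on day 0, 9.95 and 9.95 on day 1, 11.91 and 11.999 on day 3, 12.52 and 12.59 on day 5, 12.61 and 12.55 on day 7, 12.80 and 12.69 on day 10 and 12.93 and 12.75 on day 14. Unlike both type I chains it was called higher from day 1, by 0.37 ± 0.08 (adjusted p = 0.0022, limma), and the arrays of day 1 lay above those of day 0 without overlap. Its difference was 3.25 ± 0.08 on day 14 (9.54-fold, adjusted p = 1.4e-10, limma), while Col1a1 was highest on day 10. From day 10 to day 14 neither Col3a1 (0.09 ± 0.08, adjusted p = 0.55, limma) nor Col1a1 (-0.20 ± 0.08, adjusted p = 0.15) was called.

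The Col1a2 and Col3a1 promoters are printed because these chains rose together from day 3 but were called in opposite directions on day 1. They are the 250 bases before the RefSeq start site (GRCm38.p6), at chr6:4505368-4505617, plus strand, and chr1:45311288-45311537, plus strand, written 5′ to 3′ on the gene's strand. Capitals mark 5 motifs searched on both strands, namely the box CCAAT, the box TATAAA, the Sp1-type motif GGGCGG, the AP-1 consensus TGANTCA and the Smad-type motif CAGACA. Overlapping matches were counted.
Col1a2: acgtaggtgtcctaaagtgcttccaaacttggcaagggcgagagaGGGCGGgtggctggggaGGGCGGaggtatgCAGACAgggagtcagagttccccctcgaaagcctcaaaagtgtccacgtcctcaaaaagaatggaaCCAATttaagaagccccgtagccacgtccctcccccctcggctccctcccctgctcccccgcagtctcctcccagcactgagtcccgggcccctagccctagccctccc
Col3a1: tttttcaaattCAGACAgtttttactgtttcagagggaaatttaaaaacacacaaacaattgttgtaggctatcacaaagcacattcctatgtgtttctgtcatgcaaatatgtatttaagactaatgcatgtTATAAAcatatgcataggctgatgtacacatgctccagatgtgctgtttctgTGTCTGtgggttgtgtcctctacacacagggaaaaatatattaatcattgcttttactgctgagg
Col1a2 held 1 CCAAT, 2 GGGCGG and 1 CAGACA, and Col3a1 held 1 TATAAA and 2 CAGACA. Among all 32851 promoter windows of the same length 33.8% held CCAAT, 12.4% TATAAA, 32.7% GGGCGG, 6.7% TGANTCA and 17.1% CAGACA. RefSeq entries were found for 35 of the 44 genes, in 38 windows, of which 13 held CCAAT (34.2%), 5 TATAAA (13.2%), 22 GGGCGG (57.9%), 1 TGANTCA (2.6%) and 9 CAGACA (23.7%). The genes with no entry were Col1a1, Col2a1, Col4a3, Col5a2, Col9a3, Col12a1, Col14a1, Col22a1 and Col26a1. A match describes the letters of the window and not a bound site.

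Type V collagen, which nucleates type I fibrils and sets their width, has chains from Col5a1, Col5a2 and Col5a3. Col5a2 rose from 8.28 and 8.11 on day 0 to 8.47 and 8.49 on day 1, 10.22 and 10.42 on day 3 and 11.25 and 11.20 on day 10, a difference of 3.03 ± 0.08 (8.16-fold, adjusted p = 1.6e-10, limma). Its call on day 1 (0.28 ± 0.08, adjusted p = 0.014) was lost without the right array of day 0 or of day 1. Col5a1 went from 8.89 and 8.91 on day 0 to 9.65 and 9.80 on day 3 and 10.74 and 10.76 on day 10, where it was 1.85 ± 0.07 above day 0 (3.6-fold, adjusted p = 2e-09, limma), and stood at 10.42 and 10.31 on day 14. Col5a3 was highest on day 5, at 9.65 and 9.63 against 8.71 and 8.79 on day 0, a difference of 0.89 ± 0.08 (1.86-fold, adjusted p = 1.6e-06, limma). All 3 type V chains thus rose, to different heights, Col5a1 and Col5a2 being highest on day 10 and Col5a3 on day 5.

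Type XI collagen is the cartilage counterpart of type V and also occurs in developing tendon. Col11a1 read 8.33 and 8.34 on day 0, 8.21 and 8.30 on day 1, 8.23 and 8.52 on day 3, 8.60 and 8.79 on day 5, 9.12 and 8.999 on day 7, 9.66 and 9.69 on day 10 and 9.56 and 9.56 on day 14. It was the late member of the group. On day 3 it had reached 2.66% of its highest log2 difference, where Col1a1 had reached 69.9%, Col3a1 72.8% and Col5a2 70.2%. On day 10 it stood 1.34 ± 0.10 above day 0 (2.53-fold, adjusted p = 2.2e-07, limma). Col11a2, which encodes a partner chain, read 8.73 and 8.89 on day 0 and 8.47 and 8.54 on day 5, a fall of 0.30 ± 0.11 (adjusted p = 0.029, limma). Col27a1, a fibrillar chain of cartilage, rose on days 5 and 10 only, from 9.01 and 8.99 to 9.30 and 9.40, by 0.35 ± 0.09 (adjusted p = 0.004, limma). Col24a1, a fibrillar chain known from bone, fell on days 3, 5 and 7 and was lowest on day 3, at 7.88 and 7.81 against 8.19 and 8.38 on day 0 (-0.44 ± 0.10, adjusted p = 0.0024, limma). The day 10 rise of Col27a1 was lost after quantile normalization. Its day 5 rise was lost after quantile normalization, with equal array medians, with the 4 arrays alone, and without either array of days 0, 3, 7, 10 or 14 or the right one of day 5. The day 5 rise of Col11a1 was lost under the same 2 scalings and without the right array of day 5. With the median difference of all genes set to 0, the fall of Col11a2 was lost and that of Col24a1 held on day 3 alone. Col2a1, the main collagen of cartilage, lay between 8.63 and 8.93 on all arrays and was not called on any day. Of the 8 cartilage markers measured, 4 rose and 2 fell on day 10. Among them Acan, which encodes aggrecan, read 7.26 and 7.12 on day 0 and 9.36 and 9.57 on day 10, and Matn1 read 6.66 and 6.86 and 6.33 and 6.45. The summed level of the list was 11.52 to 12.13 on day 0 and 12.15 to 12.25 on day 10, and its part in the changes of Col11a1 was not tested.

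**Figure D2:**
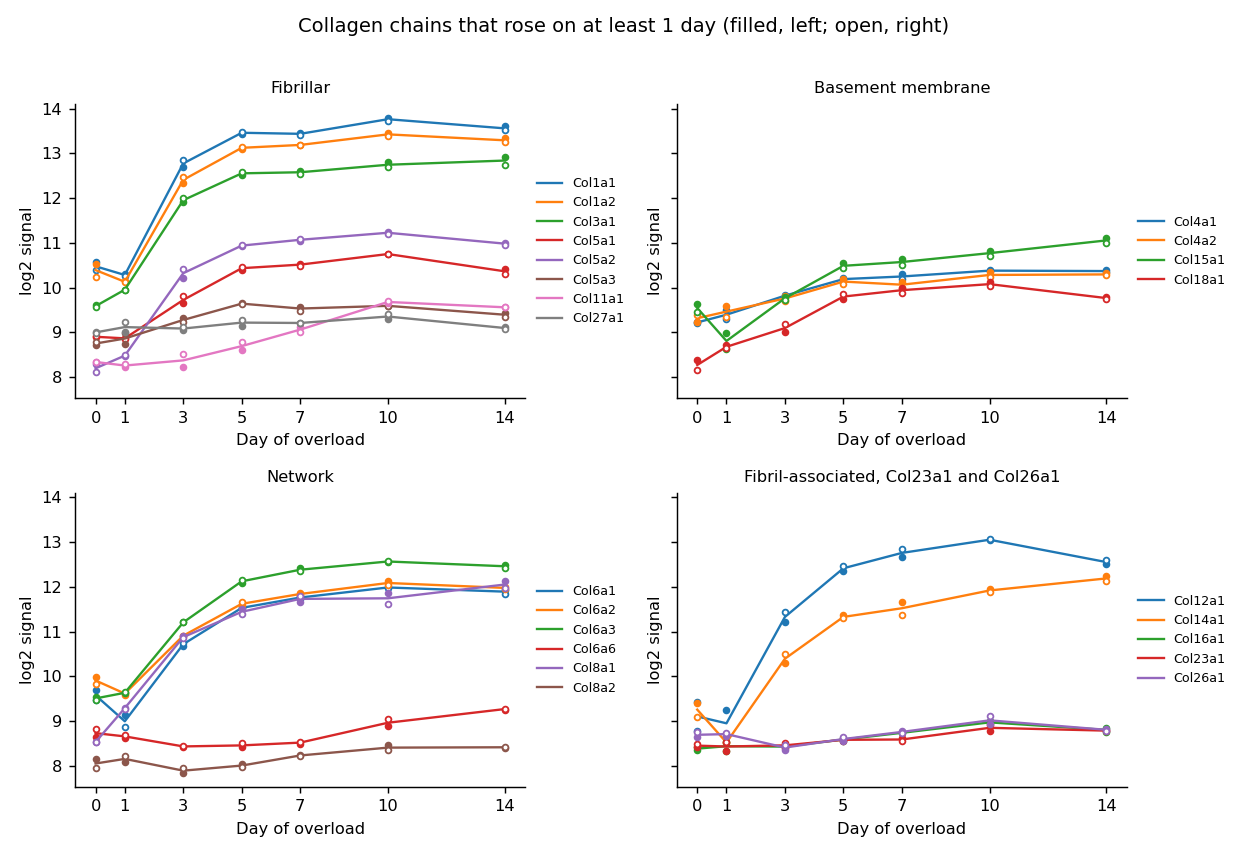
Log2 signal by day of overload of the 23 chains that rose on at least 1 day, in 4 panels by group; filled points are the left array, open points the right array and lines the mean of both. The steepest part of most curves lies between days 1 and 5, while Col11a1 is still between 8.23 and 8.52 on day 3 and reaches 9.66 and 9.69 on day 10.

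In the basement membrane group 4 of 9 chains rose and 5 fell on at least 1 day, and 1 of them, Col15a1, did both. The group median stayed near that of all genes, at -0.15 on day 5 and -0.07 on day 10 beside -0.12 and -0.13. Types XV and XVIII are multiplexins, collagens with heparan or chondroitin sulfate chains at the outer face of basement membranes, and the end of type XVIII is the source of endostatin. Col18a1 rose on all 6 days, from 8.38 and 8.16 on day 0 to 8.71 and 8.64 on day 1, 9.01 and 9.18 on day 3, 9.75 and 9.85 on day 5, 10.00 and 9.88 on day 7 and 10.13 and 10.03 on day 10, with 9.78 and 9.75 on day 14. Its difference on day 10 was 1.81 ± 0.09 (3.5-fold, adjusted p = 1.2e-08, limma). Col15a1 took another course, with 9.63 and 9.46 on day 0, 8.99 and 8.62 on day 1, 9.79 and 9.73 on day 3, 10.54 and 10.43 on day 5, 10.65 and 10.49 on day 7, 10.82 and 10.72 on day 10 and 11.12 and 10.99 on day 14. It fell by 0.74 ± 0.12 on day 1, which is 1.67-fold (adjusted p = 0.0002, limma), with both arrays below both of day 0, and rose by 1.51 ± 0.12 on day 14 (2.85-fold, adjusted p = 5.3e-07). On day 14 Col15a1 was at its highest while Col18a1 was below its level of day 10. Neither change from day 10 to day 14 was called (0.28 ± 0.12 and -0.31 ± 0.09, adjusted p = 0.15 and 0.058, limma).

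Type IV collagen of muscle is mostly the heterotrimer of the chains from Col4a1 and Col4a2, whose genes lie head to head, with start sites 21 bases apart on opposite strands in the RefSeq table. Col4a1 read 9.21 and 9.23 on day 0, 9.49 and 9.30 on day 1, 9.84 and 9.80 on day 3, 10.22 and 10.16 on day 5, 10.31 and 10.19 on day 7, 10.39 and 10.37 on day 10 and 10.38 and 10.35 on day 14. It rose by 0.60 ± 0.08 on day 3 and by 1.16 ± 0.08 on day 10 (2.23-fold, adjusted p = 1.2e-07, limma). Col4a2 followed with 0.44 ± 0.10 on day 3 and 0.98 ± 0.10 on day 14 (1.97-fold, adjusted p = 4.6e-06, limma), from 9.24 and 9.39 on day 0 to 10.31 and 10.27. The 4 other type IV chains, which form the networks of kidney, lung and other epithelia and of nerve and smooth muscle, did not rise on any day. Col4a3 fell from day 5 on, most on day 7, from 7.71 and 7.83 to 7.41 and 7.45 (-0.34 ± 0.11, adjusted p = 0.018, limma). Col4a4, its usual partner, fell on days 5 and 7, from 8.04 and 7.86 to 7.52 and 7.70 (-0.34 ± 0.11, adjusted p = 0.021). Col4a6 was called on days 7 and 14, with 7.25 and 7.51 on day 0 and 7.00 and 7.10 on day 7 (-0.33 ± 0.12, adjusted p = 0.029, limma). Col4a5 lay between 7.42 and 7.80 on all arrays and was never called. Col7a1, the anchoring fibril collagen of skin, fell on days 5 and 7, from 8.61 and 8.78 to 8.41 and 8.48 (-0.25 ± 0.09, adjusted p = 0.026, limma). None of these falls in Col4a3, Col4a4, Col4a6 and Col7a1 remained when the median difference of all genes from day 0 was set to 0. The endothelial markers Pecam1, Cdh5, Kdr and Tek split into 2 that rose and 2 that fell on day 10, with summed levels of 12.87 to 12.88 on day 0 and 13.08 to 13.12 on day 10. Their part in the type IV changes was not tested.

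In the network group 6 of 10 chains rose on at least 1 day and 6 fell, Col6a1, Col6a2 and Col6a6 doing both. The group median was 0.29 on day 10 and 0.45 on day 14, beside -0.13 and -0.11 for all genes. Type VI collagen makes the beaded filaments next to the basement membrane of muscle fibres, and mutations of its main chains cause muscular dystrophy. Col6a1 read 9.69 and 9.47 on day 0, 9.13 and 8.86 on day 1, 10.69 and 10.75 on day 3, 11.52 and 11.54 on day 5, 11.79 and 11.74 on day 7, 12.01 and 11.97 on day 10 and 11.94 and 11.85 on day 14. It fell by 0.58 ± 0.10 on day 1 (adjusted p = 0.00031, limma) and rose by 2.41 ± 0.10 on day 10 (5.32-fold, adjusted p = 1.9e-09). Col6a2, whose gene neighbours Col6a1, also fell on day 1, from 9.98 and 9.83 to 9.59 and 9.64 (-0.29 ± 0.07, adjusted p = 0.006, limma), and rose to 12.13 and 12.04 on day 10 (2.18 ± 0.07, adjusted p = 5.7e-10). Col6a3, the long chain of the trimer, read 9.54 and 9.47 on day 0, 9.62 and 9.64 on day 1, 11.21 and 11.21 on day 3, 12.10 and 12.15 on day 5, 12.42 and 12.35 on day 7, 12.55 and 12.59 on day 10 and 12.50 and 12.42 on day 14. It did not pass the test on day 1 (0.13 ± 0.07, adjusted p = 0.16, limma) and rose by 3.06 ± 0.07 on day 10 (8.34-fold, adjusted p = 6.4e-11).

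The other 3 type VI chains, from neighbouring genes, changed late or little. Col6a6, a chain that can take the place of Col6a3, has probe sets 10596383 and 10596394. On the brighter, 10596383, it read 8.64 and 8.82 on day 0, 8.63 and 8.68 on day 1, 8.43 and 8.44 on day 3, 8.41 and 8.50 on day 5, 8.50 and 8.54 on day 7, 8.89 and 9.04 on day 10 and 9.26 and 9.28 on day 14. It fell on days 3, 5 and 7, by 0.30 ± 0.08 on day 3 (adjusted p = 0.0084, limma), and rose on day 10 and by 0.54 ± 0.08 on day 14 (adjusted p = 0.00015). The probe set 10596394 also fell on days 3, 5 and 7 and rose on days 10 and 14, and unlike the brighter one it fell on day 1 (-0.43 ± 0.07, adjusted p = 0.00034 with limma over all probe sets). It went from 7.70 and 7.59 on day 0 to 7.01 and 7.09 on day 3 and 8.91 and 8.97 on day 14 (1.29 ± 0.07 above day 0, adjusted p = 4.1e-08 with limma over all probe sets). For Col6a5 the probe sets disagreed. On the brighter, 10596409, it fell on every day from 3 to 14, from 8.08 and 8.14 on day 0 to 7.59 and 7.65 on day 7 (-0.49 ± 0.08, adjusted p = 0.00017, limma) and 7.90 and 7.92 on day 14 (-0.20 ± 0.08, adjusted p = 0.048). On 10596403 it read 7.34 and 6.99 on day 0, 6.90 and 7.03 on day 7 and 7.88 and 7.64 on day 14, where it was 0.60 ± 0.12 above day 0 (adjusted p = 0.0013 with limma over all probe sets). With the mean of both probe sets Col6a5 was 0.20 above day 0 on day 14, so that the direction turned, and the fall of 10596409 on that day was also lost without either array of days 0, 5, 7, 10 or 14. Col6a4 fell on day 10 only, from 7.43 and 7.54 to 7.19 and 7.35 (-0.22 ± 0.09, adjusted p = 0.048, limma). With the median difference of all genes set to 0, Col6a4 was not called, Col6a5 stayed lower on days 5 and 7 and Col6a6 on day 3.

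**Figure D3:**
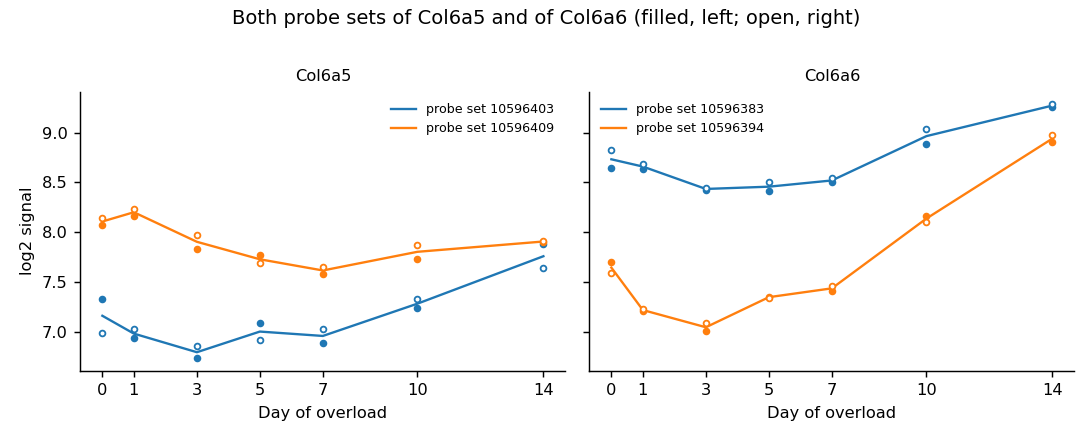
Log2 signal by day of overload for both probe sets of Col6a5 (left) and of Col6a6 (right); filled points are the left array, open points the right array and lines their mean. The Col6a6 probe sets are both highest on day 14, whereas for Col6a5 the set 10596403 ends above day 0 and the set 10596409 below it.

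Markers of skin moved on the same day as the late rise of Col6a6. All 5 keratinocyte genes measured (Krt1, Krt5, Krt10, Krt14 and Dsp) rose on day 14 and none was called on an earlier day, and their summed level was 9.65 to 9.74 on day 0, 9.46 to 9.76 on day 10 and 10.41 to 10.85 on day 14. Krt10, for one, read 7.93 and 7.58 on day 0 and 8.68 and 8.51 on day 14. Col6a6 was already called higher on day 10, though not after quantile normalization or with equal array medians, nor without the left array of day 0 or the right one of day 10. Col7a1 and Col17a1, the collagens of the junction between epidermis and dermis, were not called on day 14 (-0.21 ± 0.09 and -0.17 ± 0.10, adjusted p = 0.061 and 0.18, limma). The part of skin in the day 14 values of Col6a5 and Col6a6 was not tested.

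Type VIII collagen is a short-chain network former of vessel walls and of the corneal endothelium's basement membrane, with chains from Col8a1 and Col8a2. Col8a1 (probe set 10440091) read 8.54 and 8.53 on day 0, 9.30 and 9.28 on day 1, 10.90 and 10.85 on day 3, 11.50 and 11.39 on day 5, 11.67 and 11.79 on day 7, 11.87 and 11.62 on day 10 and 12.14 and 11.97 on day 14. It had the largest rise of the 44 chains on day 1, 0.76 ± 0.09 (adjusted p = 3e-05, limma), and on day 14, 3.52 ± 0.09, a 11.5-fold increase (adjusted p = 2.1e-10). Col8a2 stood at 8.15 and 7.96 on day 0 and 8.41 and 8.42 on day 14, a rise of 0.36 ± 0.09 (1.29-fold, adjusted p = 0.0039, limma) that was called on days 10 and 14 only. Col10a1, the network collagen of hypertrophic cartilage, lay between 7.49 and 7.995 on all arrays and was never called. Col28a1, found near Schwann cells of peripheral nerve, fell on days 5 and 7, from 7.45 and 7.53 to 7.32 and 7.18 (-0.24 ± 0.08, adjusted p = 0.024, limma), and this fall was lost when the median difference of all genes was set to 0. Of the 2 Schwann markers measured, Mbp fell alongside Sox10 on day 7, with summed levels of 9.14 to 9.16 against 9.76 to 9.79 on day 0, and their part in the fall of Col28a1 was not tested.

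The promoters of Col8a1 and Col8a2 are printed because these 2 chains of one collagen type moved furthest apart. They are the 250 bases before the start site in the same build, at chr16:57754738-57754987, minus strand, and chr4:126286544-126286793, plus strand, with the same motifs in capitals.
Col8a1: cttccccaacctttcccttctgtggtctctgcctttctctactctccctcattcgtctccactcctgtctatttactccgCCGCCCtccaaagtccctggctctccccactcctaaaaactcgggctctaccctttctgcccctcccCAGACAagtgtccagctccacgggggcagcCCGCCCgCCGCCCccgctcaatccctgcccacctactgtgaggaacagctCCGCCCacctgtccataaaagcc
Col8a2: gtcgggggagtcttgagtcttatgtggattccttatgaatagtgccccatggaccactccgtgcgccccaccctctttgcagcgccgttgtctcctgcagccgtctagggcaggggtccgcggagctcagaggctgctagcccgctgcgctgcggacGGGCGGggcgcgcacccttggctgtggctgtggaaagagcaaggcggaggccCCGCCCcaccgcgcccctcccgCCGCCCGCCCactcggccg
Col8a1 held 4 GGGCGG and 1 CAGACA, and Col8a2 held 4 GGGCGG and none of the other motifs.

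Among the fibril-associated chains 3 of 9 rose and 7 fell on at least 1 day. The group median was -0.36 on day 7 and -0.31 on day 10, beside -0.14 and -0.13 for all genes. Col12a1, which encodes a large fibril-surface collagen of tendon and of loaded connective tissue, had the largest change of all 44 chains. It read 9.43 and 8.78 on day 0, 9.25 and 8.65 on day 1, 11.21 and 11.45 on day 3, 12.36 and 12.47 on day 5, 12.68 and 12.84 on day 7, 13.04 and 13.07 on day 10 and 12.51 and 12.60 on day 14. On days 0 and 1 the left array was the higher, as it was for Tnmd but not for Scx. All arrays of Col12a1 from day 3 on lay above both days. The difference was 2.22 ± 0.20 on day 3 and 3.95 ± 0.20 on day 10, a 15.4-fold increase (adjusted p = 1e-08, limma). Col14a1, a relative that marks the perimysium and tendon sheath, read 9.41 and 9.10 on day 0, 8.53 and 8.52 on day 1, 10.29 and 10.50 on day 3, 11.36 and 11.29 on day 5, 11.67 and 11.38 on day 7, 11.95 and 11.89 on day 10 and 12.24 and 12.14 on day 14. It fell by 0.73 ± 0.12 on day 1, which is 1.66-fold (adjusted p = 0.00023, limma), and rose by 2.93 ± 0.12 on day 14 (7.64-fold, adjusted p = 3.5e-09). Col16a1, a chain with short triple helices found in many connective tissues, rose from day 5 on, from 8.35 and 8.42 on day 0 to 8.99 and 8.95 on day 10 (0.59 ± 0.08, adjusted p = 5.1e-05, limma). Its rise on day 5 was lost after quantile normalization, with equal array medians and without any 1 array of days 0, 3, 5, 7 or 10, and that of day 7 after quantile normalization.

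Tendon markers were measured beside these chains. Of Scx, Tnmd, Mkx, Fmod and Thbs4, 2 rose and 3 fell on day 1 and all 5 rose on days 10 and 14. Their summed level was 12.69 to 13.21 on day 0 and 14.61 to 14.62 on day 10. Tnmd, which encodes tenomodulin, a membrane protein of tendon cells, read 9.602 and 9.09 on day 0, 7.88 and 7.58 on day 1 and 12.50 and 12.66 on day 14. The part of tendon in the levels of Col12a1 and Col14a1 was not tested.

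The 6 other fibril-associated chains did not rise on any day. Type IX collagen sits on the fibrils of cartilage. Its chain Col9a1 fell on every day from 3 to 14, from 8.16 and 8.07 on day 0 to 7.45 and 7.61 on day 7 (-0.58 ± 0.10, 1.5-fold lower, adjusted p = 0.00021, limma). Col9a2 fell on the same days, from 8.72 and 8.91 to 8.37 and 8.41 on day 5 (-0.42 ± 0.09, adjusted p = 0.0013), and Col9a3 fell from day 5 on, from 8.88 and 8.997 to 8.63 and 8.36 on day 14 (-0.44 ± 0.11, adjusted p = 0.0043, limma). Col22a1, a collagen of the junction between muscle and tendon, fell on every day from 3 to 14. It went from 8.60 and 8.65 on day 0 to 8.17 and 8.04 on day 7, and both arrays of each later day lay below both of day 0 (-0.52 ± 0.09, adjusted p = 0.00024, limma). Col20a1 also fell on each of these days, from 8.46 and 8.38 to 8.08 and 8.01 on day 7 (-0.38 ± 0.08, adjusted p = 0.0011). Col19a1, a chain known from differentiating muscle cells and from interneurons, fell on day 3 only, from 7.33 and 7.50 to 6.94 and 7.21 (-0.34 ± 0.10, adjusted p = 0.011, limma). Setting the median difference of all genes to 0 left the fall of Col19a1 on day 3, the falls of Col9a1 and Col22a1 on all 5 days, of Col9a2 on days 3, 5, 7 and 14, of Col9a3 on day 14 and of Col20a1 on day 7.

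Of the 4 transmembrane chains, which stay in the cell membrane or are shed from it, 1 rose and 2 fell on at least 1 day. Col23a1 rose on days 10 and 14, from 8.41 and 8.49 on day 0 to 8.78 and 8.92 on day 10 (0.40 ± 0.09, 1.32-fold, adjusted p = 0.0016, limma). Col13a1, which is needed at the neuromuscular junction, fell on day 5 only, from 8.31 and 8.37 to 8.04 and 8.10 (-0.27 ± 0.08, adjusted p = 0.015). Col17a1, a hemidesmosome protein of epithelia, fell on days 7 and 10, from 7.73 and 7.90 to 7.51 and 7.58 on day 7 (-0.27 ± 0.10, adjusted p = 0.039, limma). Col25a1, a collagen of muscle and neurons that takes part in motor innervation, lay between 7.72 and 8.06 on all arrays and was not called. The falls of Col13a1 and Col17a1 were both lost when the median difference of all genes was set to 0. Col26a1, outside these groups, fell on day 3, from 8.63 and 8.75 to 8.36 and 8.46 (-0.28 ± 0.08, adjusted p = 0.012, limma), and rose on day 10 to 8.93 and 9.11 (0.32 ± 0.08, adjusted p = 0.0052). Quantile normalization ended the rises of Col23a1 and Col26a1, and equal array medians ended that of Col26a1.

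Of the chains called higher by at least 2-fold later on, 5 were called lower on day 1 and none on any other day. These were Col15a1, Col14a1, Col6a1, Col6a2 and Col1a2, and the 4 that rose were Col8a1, Col18a1, Col3a1 and Col5a2. The falls of Col6a1, Col14a1 and Col15a1 passed the threshold under all alternative fits and scalings and with any 1 array left out, and without the left array of day 0 only 3 of the 5 falls were called. The fall of Col1a2 was also lost without either array of day 1 and with array weights. Fibroblast markers were lower on the same day. Of Pdgfra, Dcn, Lum, Dpt, Thy1 and Pi16, 4 fell and 1 rose, with summed levels of 13.68 to 13.79 against 14.04 to 14.10 on day 0. Dpt, which encodes dermatopontin of the collagen matrix, read 11.10 and 11.13 on day 0 and 9.69 and 9.70 on day 1, while Pdgfra, the receptor that marks fibro-adipogenic progenitors, rose from 10.29 and 9.99 to 10.81 and 10.73. All 4 macrophage markers rose, with summed levels of 13.24 on both arrays against 10.70 to 11.30. The 4 genes that mark activated fibroblasts (Postn, Acta2, Fap and Tnc) split into 2 that rose and 2 that fell on day 1 and all rose from day 5 on. The part of cell composition in the collagen changes was not tested.

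Chains that assemble into one collagen, or belong to one class, were then compared with each other over time. For each of 18 pairs the log2 difference between the chains was taken within each array, which removes any shift of a whole array, and an exact permutation test over the 135135 ways to split 14 arrays into 7 sets of 2 of the one-way F statistic asked whether it varied between days (7.4e-06 is the smallest p it can give; adjusted by Benjamini-Hochberg over the 18 pairs). Several pairs share a chain. The difference varied in 14 of 18 pairs. Since probe sets differ in their response, the following values are changes of the difference since day 0 and not levels of one chain against another.

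Within type I collagen the chains stayed close. Col1a2 minus Col1a1 changed by -0.28 by day 3 and -0.18 by day 14 (adjusted p = 0.00013, exact permutation test), small against the rise of both chains but larger than the spread of 0.03 within days. Col4a2 minus Col4a1 likewise changed by at most -0.28, on day 7 (adjusted p = 0.012, exact permutation test). Col6a2 minus Col6a1 was 0.29 on day 1 and -0.25 on day 7 (adjusted p = 0.0016). Col6a3 minus Col6a1 lay between 0.56 and 0.71 on all later days but missed the threshold (adjusted p = 0.062, exact permutation test). In these 4 pairs the chains of one trimer kept within 0.71 of their day 0 difference.

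In other pairs the chains parted further, except for Col3a1 and Col1a1. Col8a2 minus Col8a1 changed by -0.65 by day 1, -2.50 by day 3 and -3.16 by day 14 (adjusted p = 0.00027, exact permutation test), the largest shift of the 18. In type V collagen Col5a2 minus Col5a1 rose by 1.302 by day 3 and stood at 1.32 on day 14 (adjusted p = 0.0017), and Col5a3 minus Col5a1 changed by -1.01 by day 10 (adjusted p = 0.00027, exact permutation test). Against the major fibril chain, Col5a1 minus Col1a1 changed by -1.48 by day 3 and -1.62 by day 14 (adjusted p = 0.00027), after 0.16 on day 1. Col3a1 minus Col1a1 was 0.56 on day 1, when Col3a1 alone was called higher, and -0.13 on day 10 (adjusted p = 0.0016, exact permutation test). Col11a2 minus Col11a1 changed stepwise, to -0.66 on day 5, -0.997 on day 7 and -1.56 on day 10 (adjusted p = 0.00027).

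The remaining pairs differed in timing or not at all. Col18a1 minus Col15a1 jumped to 1.14 on day 1, where one chain rose and the other fell, and was back at -0.02 on day 14 (adjusted p = 0.0036, exact permutation test). Col14a1 minus Col12a1 reached -1.39 on day 7 and -0.52 on day 14 (adjusted p = 0.0075). By day 10 Col4a3 minus Col4a1 had changed by -1.49 and Col4a5 minus Col4a1 by -1.22 (adjusted p = 0.0033 and 0.0035, exact permutation test). Most of this was the rise of Col4a1 by 1.16, as Col4a3 changed by -0.33 and Col4a5 by -0.07. The mean signals of Col4a3 and Col4a5, 7.55 and 7.58, lay below the median of every array (8.25 at the lowest). Col4a6 minus Col4a5, from genes that also lie head to head, with start sites 1343 bases apart, ranged from 0.21 on day 1 to -0.23 on day 14 (adjusted p = 0.012). For Col4a4 minus Col4a3, Col9a2 minus Col9a1 and Col9a3 minus Col9a2 the test found no variation (adjusted p = 0.97, 0.47 and 0.84, exact permutation test), with day means within 0.11, 0.19 and 0.15 of each other and spreads within days of 0.14, 0.10 and 0.11, which does not show that these chains moved alike.

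**Figure D4:**
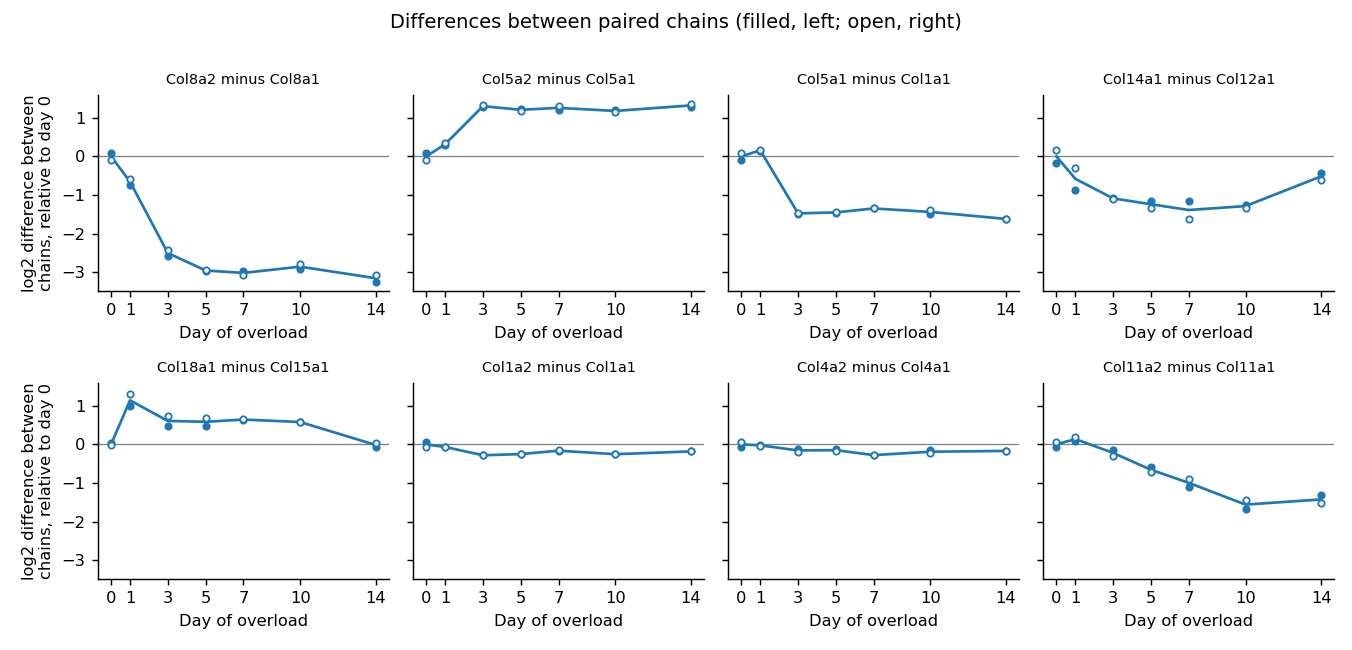
Log2 difference between the 2 chains of 8 pairs by day of overload, relative to its day 0 mean; filled points are the left array, open points the right array and lines their mean. Col8a2 minus Col8a1 falls by 3.16 by day 14 and Col5a2 minus Col5a1 rises by 1.32, while Col1a2 minus Col1a1 stays within 0.28 of day 0.

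Genes that act on collagen were measured from a list ordered by role, 44 of the 47 listed having a probe set of their own. On day 1, 15 rose (34.1%) and 9 fell (20.5%), on day 3 the counts were 34 (77.3%) and 5 (11.4%), on day 5 they were 36 (81.8%) and 4 (9.09%), and on day 7 and day 10 they were 36 and 5. The shares of all genes on these days are those given for the chains above. The list median was 0.14 on day 1, 1.10 on day 3 and 1.48 on day 10, beside 0.04, -0.07 and -0.13 for all genes. On day 14, 35 rose and 5 fell. From day 10 to day 14, 11 of them fell (25%, against 5.11% of all genes) and 2 rose (4.55%, against 3.79%), where among the chains 1 fell and 1 rose.

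Collagen chains are hydroxylated and glycosylated in the endoplasmic reticulum before they fold. Of 14 genes of this step 12 rose on days 3, 5 and 7 and 11 on days 10 and 14. P4ha3, a catalytic subunit of prolyl 4-hydroxylase, read 7.18 and 7.07 on day 0, 7.07 and 7.00 on day 1, 10.01 and 9.85 on day 3 and 11.53 and 11.47 on day 10 (4.37 ± 0.08, adjusted p = 2.5e-11, limma). Plod2, the hydroxylase of telopeptide lysines, rose from 7.57 and 7.12 on day 0 to 8.59 and 8.82 on day 1 and 10.89 and 10.98 on day 7 (3.59 ± 0.14, adjusted p = 1.6e-09). Both were higher on every array from day 3 on than on either array of day 0. Among chaperones and export factors, Serpinh1, which encodes the collagen chaperone HSP47, rose from 9.41 and 9.38 to 11.34 and 11.42 on day 7 (1.98 ± 0.07, adjusted p = 1.1e-09, limma), and Ppib, a prolyl isomerase of the same complex, from 11.31 and 11.04 to 12.91 and 12.99 (1.78 ± 0.09, adjusted p = 8.5e-09). Mia3, which loads procollagen into transport vesicles, was the 1 of these 4 genes that fell on every day, by 0.79 ± 0.09 on day 3 (adjusted p = 1e-05, limma).

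Outside the cell, propeptides are cut off and the fibrils cross-linked. Bmp1, the procollagen C-proteinase, rose from 10.05 and 10.01 on day 0 to 12.21 and 12.16 on day 10 (2.15 ± 0.07, adjusted p = 6e-10, limma), and its enhancer Pcolce from 10.96 and 10.71 to 12.74 and 12.79 on day 7 (1.93 ± 0.08, adjusted p = 2.9e-09). Of the 7 genes of this step 5 rose and 2 fell on days 3 to 14. All 4 lysyl oxidase genes measured rose on each day. Lox, which starts the cross-link by oxidising lysine, went from 9.25 and 8.47 on day 0 to 11.27 and 11.26 on day 1, when the type I chains had not risen, and to 13.10 and 13.18 on day 5 (4.28 ± 0.17, adjusted p = 2.1e-09, limma). Loxl3 rose to 11.18 and 11.20 on day 5 from 8.39 and 8.15 (2.92 ± 0.09, adjusted p = 4e-10).

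Genes of collagen breakdown and uptake rose in the same span, 7 of 8 on day 10. Mmp14, the membrane-bound collagenase, went from 9.58 and 9.46 on day 0 to 12.72 and 12.75 on day 10 (3.21 ± 0.09, adjusted p = 1.6e-10, limma). Mmp13, a secreted collagenase, went from 8.82 and 7.95 to 11.61 and 11.54 (3.19 ± 0.33, adjusted p = 3.7e-06). Mmp8, the neutrophil collagenase, took the other direction, with 9.18 and 8.33 on day 0 and 6.96 and 7.05 on day 14 (-1.74 ± 0.37, adjusted p = 0.0019, limma). Of 7 collagen receptor genes 6 rose on day 10. Itga11, the subunit of a fibroblast receptor for fibrillar collagen, fell on day 1, from 8.996 and 8.82 to 7.71 and 7.71 (-1.20 ± 0.10, adjusted p = 1.3e-06, limma), and rose to 10.96 and 10.89 on day 10 (2.02 ± 0.10, adjusted p = 1e-08). Itgb1, its partner subunit, was highest on day 1, at 12.61 and 12.56 against 11.46 and 11.33 (1.19 ± 0.08, adjusted p = 1.5e-07, limma).

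**Figure D5:**
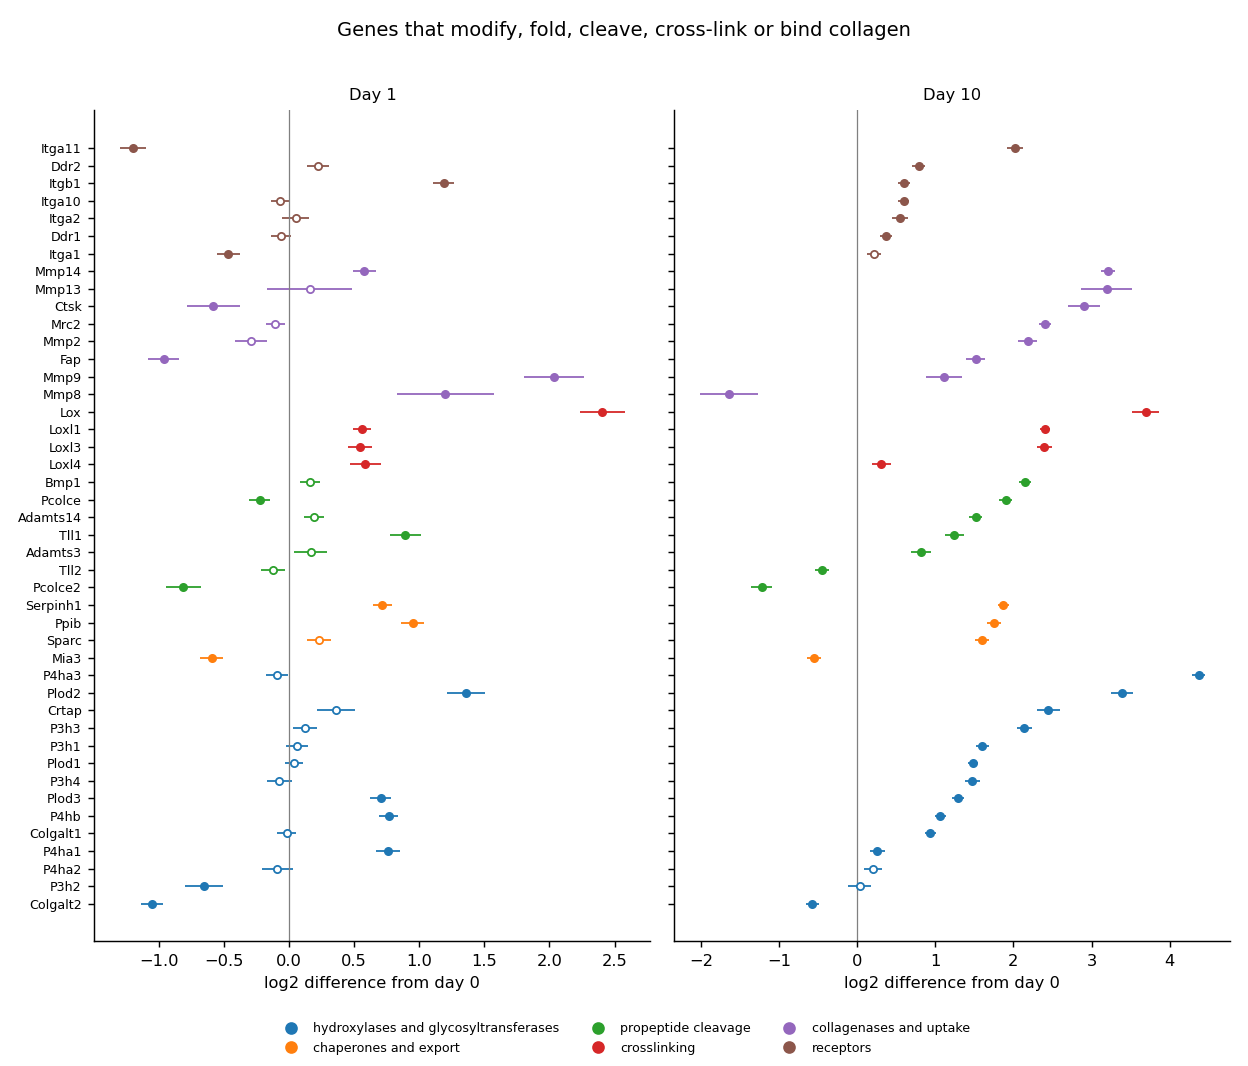
Log2 difference from day 0 with its standard error for the 44 measured genes that modify, fold, cleave, cross-link, degrade or bind collagen, on day 1 (left) and day 10 (right), coloured by role; filled points passed an adjusted p under 0.05. On day 10 the points run from -1.64 in Mmp8 to 4.37 in P4ha3.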

How the data were processed

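Each deposited value is the log2 signal of a probe set as processed by the authors, with a normalization not given in the sources used here. Partek is named, with no version, per the submitters' processing notes. The design text gives 100 ng of RNA per array and the labelling protocol 250 ng. Each gene with a single symbol was represented by its brightest probe set over the 14 arrays (19938 genes, 46 probe sets for the 44 chains), with no filter on low values. Models with the day as group were fitted with limma 3.58.1 in R 4.3.3 to all 14 arrays (7 residual and 4.95 prior degrees of freedom), p-values are two-sided and Benjamini-Hochberg adjusted over all genes. Chain pairs were tested with an exact permutation test. Tested on simulated data for day 3, the fit called 52% of 50 genes with a log2 change of 0.5 and 96% of 50 with a change of 1. Fewer genes changed in that simulation than were called in the data, so its adjusted threshold was stricter and these shares do not carry over. Right minus left differences correlated between days at r from -0.19 to 0.35 across genes (median 0.07), so the side was no block.

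Described in full are, for each group, the 3 chains with the largest called change whose arrays did not overlap those of day 0, every chain that fell, both chains of the pair with the smallest p, and 2 genes per role among genes acting on collagen. Values of Mmp8, Mia3, other chains and markers were chosen after they were seen. The members and all lists were chosen with earlier results of these data known. Alternatives were quantile normalization, equal array medians, a shift of the median difference to 0, no genes of low signal, all or averaged probe sets, an intensity trend, array weights, the side as a block, 4 arrays only, stricter thresholds and each array left out.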

Additional observations from a re-analysis of the deposited data

How the results depend on the processing

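With 2 arrays a day, no call separates days from animals, and small changes can be missed. The simulated shares set no limit for these data, where called falls of days 3 to 14 were as small as -0.20. Of 6336 tests of single chains against day 0 under alternatives, 5966 stayed called in the same direction or stayed not called. The call was lost in 259 and gained in 110, and 1 called change reversed (Col6a5 on day 14, 0.20 with the mean of both probe sets). A difference that was never called could change sign and still count as unchanged. On each chain's day of largest change alone, 985 of 1056 were unchanged in this sense and 0 called changes reversed. Equal array medians moved the falls of days 3, 5, 10 and 14 from 9, 14, 9 and 8 to 17, 22, 15 and 15, and those from day 1 to day 3 from 12 to 21. Quantile normalization gave 14 falls on day 3 and 2 from day 10 to day 14. A median difference of 0 gave 4, 5, 2 and 4 falls on days 5, 7, 10 and 14 and 2 from day 1 to day 3. At an adjusted p under 0.01 there were 5 falls on each of days 3, 5, 7 and 10 and 4 on day 14. With a 2-fold minimum 0 chains fell on any day, and 0, 12 and 15 rose on days 1, 5 and 10. The 4 arrays alone gave 3 falls on day 1 and 5 on day 14, and array weights gave 5 on day 14 and 2 from day 10 to day 14. An intensity trend gave 1 rise from day 5 to day 7 and, from day 10 to day 14, 2 rises and 2 falls. The other counts of chains and of genes acting on collagen, and the count of pairs, stayed within 1.5 times. The cause was not tested.

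With 1 array left out, the falls ranged from 3 to 6 on day 1, 3 to 10 on day 3, 6 to 14 on day 5, 5 to 15 on day 7, 3 to 9 on day 10, 2 to 8 on day 14 and 1 to 12 from day 1 to day 3. The lone array of a day was then taken to vary like the others. The right array of day 0 alone took the falls of days 3, 5, 7, 10 and 14 to 3, 6, 6, 5 and 5, the left array of day 3 took those of day 3 to 5, the left and right arrays of day 5 those of day 5 to 6 and 8, the left array of day 7 those of day 7 to 5, the left array of day 10 those of day 10 to 3 and the right array of day 14 those of day 14 to 2. From day 1 to day 3 the falls were 2 without the right array of day 1 and 1 without the left array of day 3. Rises ranged from 0 to 2 from day 7 to day 10, and from day 10 to day 14 rises ranged from 0 to 1 and falls from 0 to 2. Genes acting on collagen that fell on day 3 ranged from 3 to 5, with 3 without the right array of day 3.

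The replicate number marks the side, 1 for left and 2 for right, and same-numbered arrays of different days share nothing else that the labels name. With the side as a replicate block, 2 chains rose from day 10 to day 14 in place of 1, and no other count of calls moved by over 1.5 times.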
